A study of Mus musculus with 6 samples.

Results

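The genes described here are 32 markers of the cells that line blood vessels, taken by symbol from a given list, among 54232 gene rows counted in each library. They were split into 26 pan-endothelial genes, used by endothelium of many organs, and 6 sinusoidal genes (Stab1, Stab2, Lyve1, Gpr182, Oit3 and Flt4), which mark the leaky vessels of the liver. By general knowledge of where they are expressed, 14 of the 32 are also used by blood cells or their precursors (Pecam1, Eng, Tek, Stab1, Lyve1, Esam, Egfl7, Sox17, Erg, Ets1, Cd93, Emcn, Tie1 and Flt1), and 18 are not on that list.

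RNA was sequenced from C57/B6 mouse fetal liver cells of stage E13.5, from which cells carrying the red cell antigen Ter-119 had been removed; all 6 libraries share this source. The 3 day 0 libraries hold these purified cells with no treatment. The 3 libraries at 30 h hold cells grown in medium with erythropoietin, the hormone of red cell production, with the solvent DMSO added at 24 h and left for 6 h. The labels call both groups progenitor cells and name no separate animals or cultures, so p-values measure the spread between these libraries only.

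The fetal liver is the main site of blood formation before birth, and its sinusoids form the vessel bed in which blood precursors lie. Sinusoidal endothelial cells clear proteins, hyaluronan and debris from blood through scavenger receptors of the stabilin family. Endothelial identity is held by ETS and SOXF transcription factors, and vessel growth is steered by VEGF, angiopoietin, Notch and apelin signals acting on receptors that many of these genes encode. Endothelium and blood stem cells share a developmental origin, and many surface proteins and transcription factors are common to both.

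Library totals ran from 27754279 to 29949173 counts at day 0 and from 19241780 to 24154481 at 30 h. Levels are given as CPM, counts scaled to library size, with TMM, a correction for differences in library make-up, with mean ± SD over n = 3 libraries in each group. Calls come from edgeR's quasi-likelihood test over 16150 genes, with Benjamini-Hochberg adjusted p-values below 0.05. Of these genes 40.1% were called lower and 34.4% higher at 30 h, and 79.7% had values that did not overlap between the groups. The split was 5553 higher and 6483 lower with TMM, but 3601 and 8791 with library totals alone, where the median change over all genes was -0.58 in place of -0.09 (log2). By raw counts the third library at 30 h stood apart from the first and second (chi-square per degree of freedom 94.9 and 52.1, against 11.7 between those 2).

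All 32 genes were detected in every day 0 library, with between 73 and 3566 counts, so endothelial transcripts were present in cells labelled as progenitors. At 30 h 31 of the 32 were lower and 1, Egfl7, was higher. The groups did not overlap for any of the 32 genes. The median log2 change was -4.53, or -4.29 with Sox7, which had 0 counts at 30 h, set at the bound its floor allows; it was -0.09 over all genes tested. A drop of at least 8-fold was called for 21 of the 32, against 9.11% of all genes tested. All 32 passed edgeR's filter on low counts, but 18 of them did not reach the filter's level in all 3 libraries at 30 h and so passed through day 0. Of the 14 that reached it in both groups, 13 were called lower and 1 higher. Among these 14, only Kdr, Plvap and Oit3 were lower by at least 8-fold. The count of 21 therefore rests largely on genes that passed through day 0, and setting it beside 9.11% is a description only. In bulk RNA, fewer endothelial cells and less RNA per endothelial cell cannot be told apart. For any gene that blood cells also use, on the list or not, a change in those cells cannot be told apart either. Time in culture, the medium with erythropoietin and DMSO differed together between the groups.

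**Figure D1:**
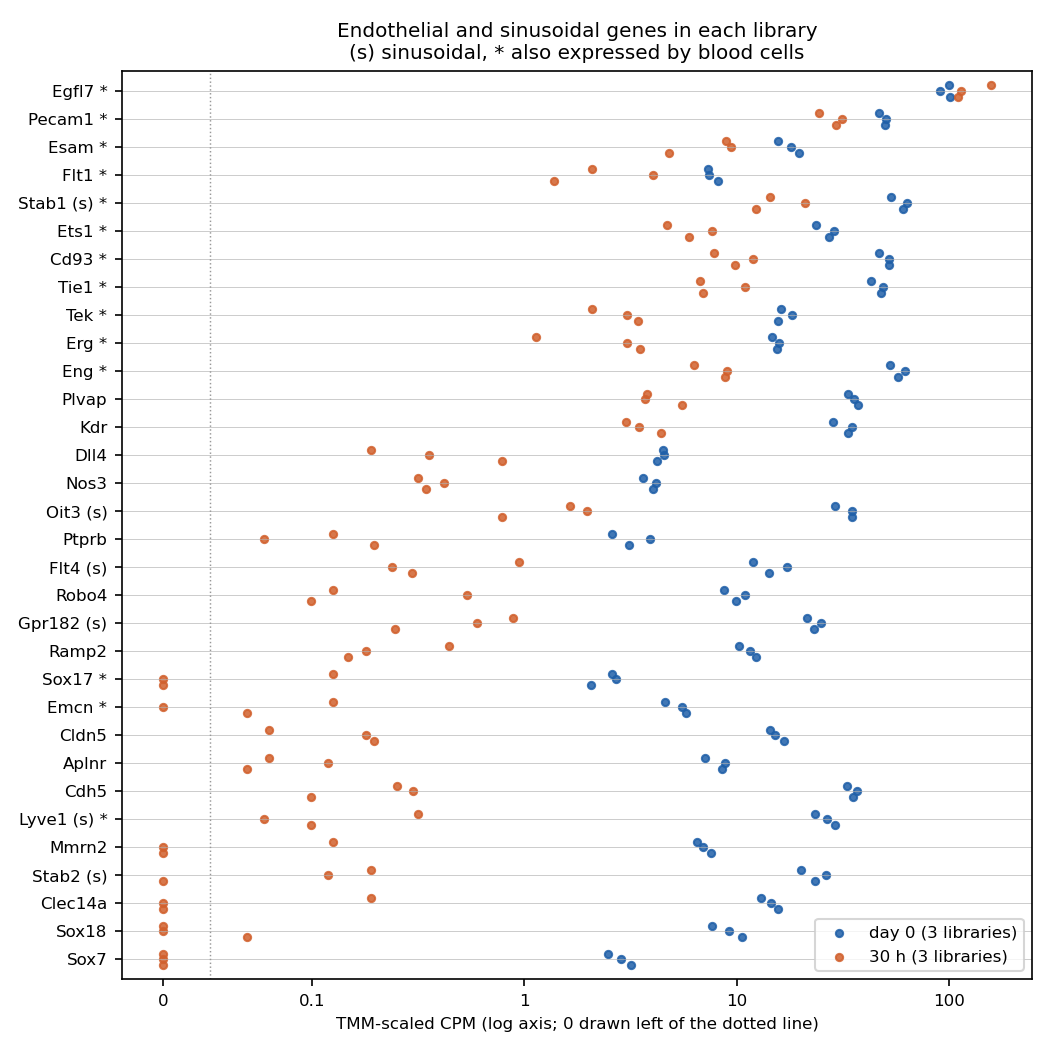
TMM-scaled CPM of each of the 32 genes (log axis) in the 3 day 0 libraries (blue) and the 3 libraries at 30 h (orange), ordered by the percent of the day 0 level found at 30 h; (s) marks sinusoidal genes and * genes also expressed by blood cells, and values of 0 are drawn left of the dotted line. The rows at the bottom, from Ramp2 down, lie at or under 0.441 CPM in every library at 30 h, while Egfl7 at the top lies between 110 and 157 CPM.

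The junction and surface genes split into those that went to trace levels and those that did not. Cdh5 (ENSMUSG00000031871, chromosome 8, 104101625 to 104144511, mm10) encodes VE-cadherin, the adhesion molecule of endothelial junctions. It stood at 35.3, 36.7 and 33.0 CPM at day 0 and at 0.0987, 0.298 and 0.252 CPM at 30 h, where 11 reads were counted over 3 libraries against 3609 at day 0. The level at 30 h was 0.617% of that at day 0 (95% exact binomial interval from counting error only, 0.296% to 1.06%; log2 change -7.36 ± 0.23 SE, edgeR adjusted p = 4.854e-07). All 3 libraries at 30 h lay far below all 3 at day 0. Cldn5, a claudin of endothelial tight junctions, went from 16.8, 15.1 and 14.3 CPM to 0.197, 0.179 and 0.063 CPM, 0.951% of its day 0 level. Emcn, a sialomucin of venous and capillary endothelium that some blood stem cells also carry, had 1, 0 and 2 counts at 30 h against 205, 192 and 151 at day 0, which leaves 1.10% with a counting interval of 0.219% to 3.13%.

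Pecam1 and Esam, adhesion molecules that platelets, leukocytes or blood stem cells also carry, were lower by far less. Pecam1 (ENSMUSG00000020717, chromosome 11, 106654217 to 106750628, mm10) was measured at 50.2, 50.7 and 46.6 CPM at day 0 and at 29.4, 31.5 and 24.4 CPM at 30 h, a 1.73-fold drop (edgeR adjusted p = 0.0004807). Esam fell from 19.6, 18 and 15.7 to 4.79, 9.42 and 8.94 CPM, 2.32-fold (edgeR adjusted p = 0.002119). The first library at 30 h was the lowest for Esam, and the third for Pecam1. Thus within 5 adhesion genes the share of the day 0 level found at 30 h ran from 0.951% for Cldn5 and 0.617% for Cdh5 to 57.8% for Pecam1.

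VEGF receptors were lower in all 3 cases. Kdr, which encodes the main signalling receptor for VEGF-A, stood at 33.6, 34.9 and 28.4 CPM at day 0 and 4.39, 3.46 and 3.02 CPM at 30 h, 8.84-fold lower (edgeR adjusted p = 2.687e-06). Kdr is not on the list of genes shared with blood, yet 195 counts were left over the 3 libraries, 11.2% of the day 0 level. Flt1, a high-affinity VEGF receptor that can act as a decoy and that monocytes also express, went from 8.20, 7.42 and 7.34 to 1.38, 4.05 and 2.08 CPM, 3.09-fold lower (edgeR adjusted p = 0.002045). Its 3 values at 30 h had the widest spread of the 14 members with at least 10 counts in each library at 30 h, a coefficient of variation of 55.3% against a median of 24.5%. Flt4, the receptor for VEGF-C in lymphatic and sinusoidal vessels, fell from 14.2, 17.3 and 11.9 CPM to 0.296, 0.238 and 0.944 CPM, 3.40% of day 0.

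Tek and Tie1, the angiopoietin receptor and its partner, fell by like amounts. Tek was at 15.7, 18.2 and 16.1 CPM at day 0 and 3.45, 3.04 and 2.08 CPM at 30 h, 5.78-fold lower (edgeR adjusted p = 1.094e-05). Tie1 was at 47.6, 48.7 and 42.7 CPM and then at 6.91, 11.0 and 6.74 CPM, 5.64-fold lower (edgeR adjusted p = 1.509e-05). Both are also expressed by blood stem cells. Ptprb, the endothelial phosphatase that acts on TEK and VE-cadherin, is not on that list and had 7 counts at 30 h against 330 at day 0, 3.99% of its level (counting interval 1.65% to 8.60%).

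Among the other receptors and ligands of vessel signalling, 4 of 5 were lower by over 8-fold. Robo4, which stabilises vessels, fell from 9.92, 10.9 and 8.71 to 0.0987, 0.536 and 0.126 CPM, with 9 of its 13 counts at 30 h in the second library. Ramp2, a partner of the adrenomedullin receptor, fell to 2.25% and Aplnr, the apelin receptor of sprouting vessels, to 0.949% of day 0 (4 counts against 839). Dll4, the Notch ligand of arterial and tip cells, went from 4.24, 4.56 and 4.49 to 0.789, 0.358 and 0.189 CPM, 10.1% of day 0 with a counting interval of 6.83% to 16%. Eng, the TGF-beta co-receptor endoglin, which early erythroid precursors and blood stem cells also carry, stood at 57.7, 61.9 and 53.0 CPM and then at 8.83, 9 and 6.30 CPM. It was 7.13-fold lower (edgeR adjusted p = 3.138e-06), with groups far apart.

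Among the transcription factors, the SOXF genes fell further than Erg and Ets1. No SOXF gene reached the filter level in any library at 30 h, and Erg and Ets1 are both on the list shared with blood. Family therefore cannot be told apart here from use in blood or from the filter. The 3 SOXF genes, which drive arterial and lymphatic fate, were almost gone at 30 h: Sox7 had 0 counts in each library against 113, 99 and 82, Sox18 had 1 count in all against 947, and Sox17 had 2 against 252. With a floor of 3 counts per library Sox7 was at least 16.6-fold lower. Sox18 was left at 0.18% of day 0 (counting interval 0.0052% to 1.15%) and Sox17 at 1.71% (0.186% to 5.64%). The ETS genes fell less: Erg, needed for endothelial identity and for blood stem cells, went from 15.5, 15.8 and 14.6 to 3.50, 3.04 and 1.1 CPM, 5.85-fold lower (edgeR adjusted p = 0.0001246). Ets1, also active in lymphocytes, went from 27.1, 28.8 and 23.7 to 5.97, 7.69 and 4.72 CPM, 4.33-fold lower (edgeR adjusted p = 2.387e-05). The third library at 30 h was the lowest for both of these ETS genes. Of other ETS genes, which are not members, Elk3 and Etv6 had log2 changes of -1.39 and -1.31. Fli1 was called higher with TMM (0.45), and Etv2 was not tested.

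Of the surface lectins, matrix proteins and enzymes other than Egfl7, 5 of 5 were lower. Clec14a, an endothelial C-type lectin, had 0, 0 and 3 counts at 30 h against 551, 502 and 430, 0.438% of its level. Mmrn2, a matrix ligand of CLEC14A and CD93, had 0, 0 and 2 against 269, 242 and 214, or 0.597%. Cd93, the related lectin that early blood progenitors also carry, kept far more: 52.1, 52.3 and 46.9 CPM at day 0 and 9.87, 11.9 and 7.81 CPM at 30 h, 5.12-fold lower (edgeR adjusted p = 7.125e-06). Plvap, which closes the openings of fenestrated endothelium, fell 8.13-fold, from 37.3, 35.7 and 33.6 to 5.53, 3.70 and 3.78 CPM. Nos3, the endothelial nitric oxide synthase, was left at 9.08% on 19 counts.

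Sinusoidal genes were lower in 6 of 6 cases, with a median log2 change of -5.15, beside -3.34 for the 26 pan-endothelial genes, of which 25 were lower. Only 2 of the 6 (Stab1 and Oit3) and 12 of the 26 reached the filter level in all libraries at 30 h, so these medians are a description and rest largely on genes that passed through day 0. Stab2 (ENSMUSG00000035459, chromosome 10, 86841198 to 87008025, mm10), the hyaluronan scavenger receptor of liver sinusoids, stood at 23.4, 26.3 and 20.2 CPM at day 0 and had 0, 2 and 3 counts at 30 h, 0.441% of its level (edgeR adjusted p = 1.601e-06). Lyve1, another hyaluronan receptor, went from 29.2, 26.7 and 23.3 to 0.0987, 0.0596 and 0.315 CPM, 0.598% of day 0, although macrophages and some fetal blood stem cells also use it. Gpr182, a scavenger of chemokines, was left at 2.48% and Oit3, a zona pellucida domain protein of sinusoids and liver macrophages, at 4.44%. Both had their lowest value at 30 h in the first library (0.247 CPM for Gpr182 and 0.789 CPM for Oit3).

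Stab1, the stabilin that macrophages share with sinusoids, differed from Stab2. It was at 60.7, 63.6 and 53.2 CPM at day 0 and at 12.4, 20.9 and 14.3 CPM at 30 h, 3.74-fold lower (edgeR adjusted p = 5.832e-05). At 30 h 26.8% of the Stab1 level was found, with a counting interval of 24.5% to 28.4%, against 0.131% to 0.945% for Stab2. The pair therefore stood at 2.66 (Stab2) and 5.75 (Stab1) CPM per kb of exon at day 0, and at 0.0117 and 1.54 at 30 h. Stab1 exons overlap those of Nt5dc2 on the other strand (378, 377 and 370 CPM at day 0, 233, 208 and 193 at 30 h), and the strand setting of the counting was not given in the sources used here.

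The members can also be split by the list of use in blood, drawn up from general knowledge when earlier results of these data were known. Here and below, not shared means not on that list. Blood cells may still express such genes, as macrophages do Oit3, so the 18 are not a measure of endothelium alone. Of the 18 genes not shared with blood only 3 (Kdr, Plvap and Oit3) reached the filter level in all 3 libraries at 30 h, and 15 passed through day 0 alone, against 11 of the 14 shared genes that reached it, so the counts and medians of these lists are descriptions only. The 18 genes not shared with blood were lower in 18 of 18 cases, each by at least 8-fold, with a median log2 change of -5.44 (-5.33 with Sox7 at its bound) and the smallest drop in Plvap (-3.02). The 14 shared genes had a median of -2.43; 13 were lower, 3 of them by at least 8-fold (Lyve1, Emcn and Sox17), and Egfl7 was higher. Of the 8 genes left at under 1% with at least 1 count, 7 were not shared. Of the 5 genes left at 20% to 60% (Pecam1, Esam, Flt1, Stab1 and Ets1) all were shared. Within genes not shared with blood, the 4 sinusoidal genes had a median of -5.15 and the 14 pan-endothelial genes one of -6.06 (-5.40 with Sox7 at its bound). Their summed levels went in the other order. At 30 h, 2.81% of the day 0 sum was found for the 4 sinusoidal genes and 5.17% for the 14 pan-endothelial genes. No order of these 2 lists is therefore read from the medians. Oit3 is counted as not shared, although liver macrophages also express it (above). It held 1.46 of the mean 2.63 CPM left in that sinusoidal sum at 30 h. Per kb of exon, 9 of the 10 highest members at 30 h were shared genes, against 6 of 10 at day 0; the exception was Plvap.

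**Figure D2:**
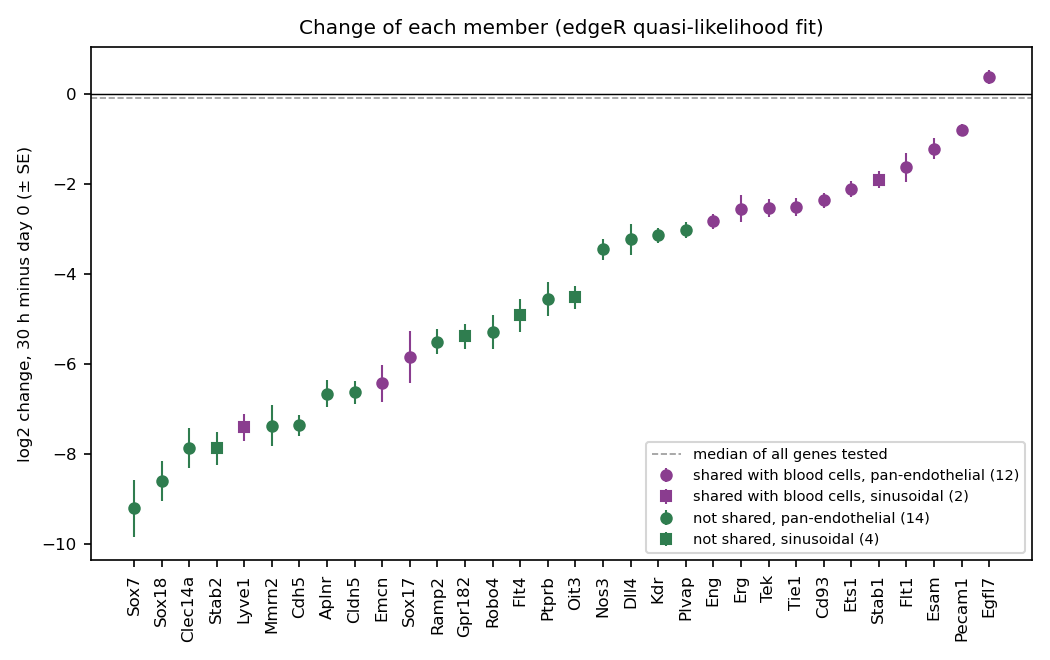
Log2 change (30 h minus day 0, edgeR fit, bars ± SE) of each of the 32 genes, ordered by size. Purple marks genes on the list shared with blood cells and green those not on it. Squares mark sinusoidal genes, and the dashed line the median of all genes tested (-0.09). The green points all lie at or below -3.02, while the purple points run from -7.40 to 0.38; the fitted value of Sox7, with 0 counts at 30 h, depends on the prior count and is not a bound.

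Egfl7 was the member that did not fall. It encodes a secreted factor of endothelium, which blood stem cells and platelet precursors also express, and its gene (ENSMUSG00000026921, chromosome 2, 26580014 to 26593120, mm10) hosts the microRNA miR-126. It stood at 101, 91.1 and 99.7 CPM at day 0 and at 110, 114 and 157 CPM at 30 h, with 10008 and 6618 counts per group. The groups did not overlap, but the lowest value at 30 h and the highest at day 0 were close, and the third library at 30 h was well above the other two. The change was 1.30-fold (log2 0.38 ± 0.15 SE, edgeR adjusted p = 0.04677). The call was lost under 9 of 13 other settings and held under 4. The log2 change of Egfl7 was -0.11 with library totals alone (edgeR adjusted p = 0.4809), 0.26 with upper-quartile scaling (adjusted p = 0.2434) and 0.30 with no filter on low counts (adjusted p = 0.127). It was 0.39 with a filter at a mean of 1 CPM and 0.36 with a replicate block (edgeR adjusted p = 0.05112 and 0.05046). Without day 0 replicate 1, 2 or 3 it was 0.39, 0.32 and 0.38 (edgeR adjusted p = 0.1015, 0.1641 and 0.1094), and without 30 h replicate 2 it was 0.45 (adjusted p = 0.05122). The call held with DESeq2's size factors in edgeR (0.45, adjusted p = 0.0473), with DESeq2's own test (0.45, adjusted p = 0.03556), without 30 h replicate 1 (0.54, edgeR adjusted p = 0.01537) and without 30 h replicate 3 (0.20, edgeR adjusted p = 0.01538). Egfl7 exons overlap those of Agpat2 on the other strand, which was called lower (48.2, 45.9 and 47.5 CPM at day 0, 20.9, 20.9 and 25.2 at 30 h).

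**Figure D3:**
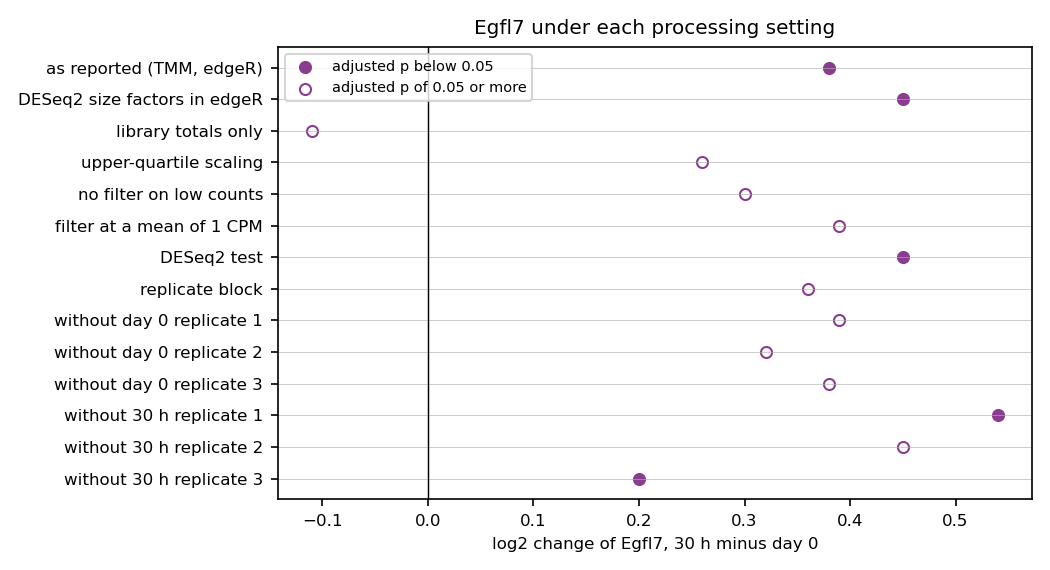
Log2 change of Egfl7 (30 h minus day 0) as reported and under each of 13 other settings; filled points have an adjusted p below 0.05 and open points do not. The points run from -0.11 with library totals only to 0.54 without 30 h replicate 1, and 5 of the 14 are filled.

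Egfl7 made up most of the summed level at 30 h. Per kb of exon, it was 14.8% ± 1.39 (SD, n = 3) of the summed level of the 32 genes at day 0 and 63.4% ± 6.86 (SD, n = 3) at 30 h. The 6 sinusoidal genes made up 20.1%, 20.7% and 19.1% in the day 0 libraries and 3.23%, 5.38% and 3.97% in those at 30 h, a drop of 15.8 percentage points in the means. With Egfl7 left out of the sum the sinusoidal share was 23.4% ± 0.598 and 11.6% ± 2.88 (SD, n = 3 each), and with Stab1 and Lyve1 left out it was 13% ± 0.702 and 1.35% ± 0.499 (SD, n = 3 each). Genes shared with blood cells made up 54.5% at day 0 and 92.9% at 30 h.

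**Figure D4:**
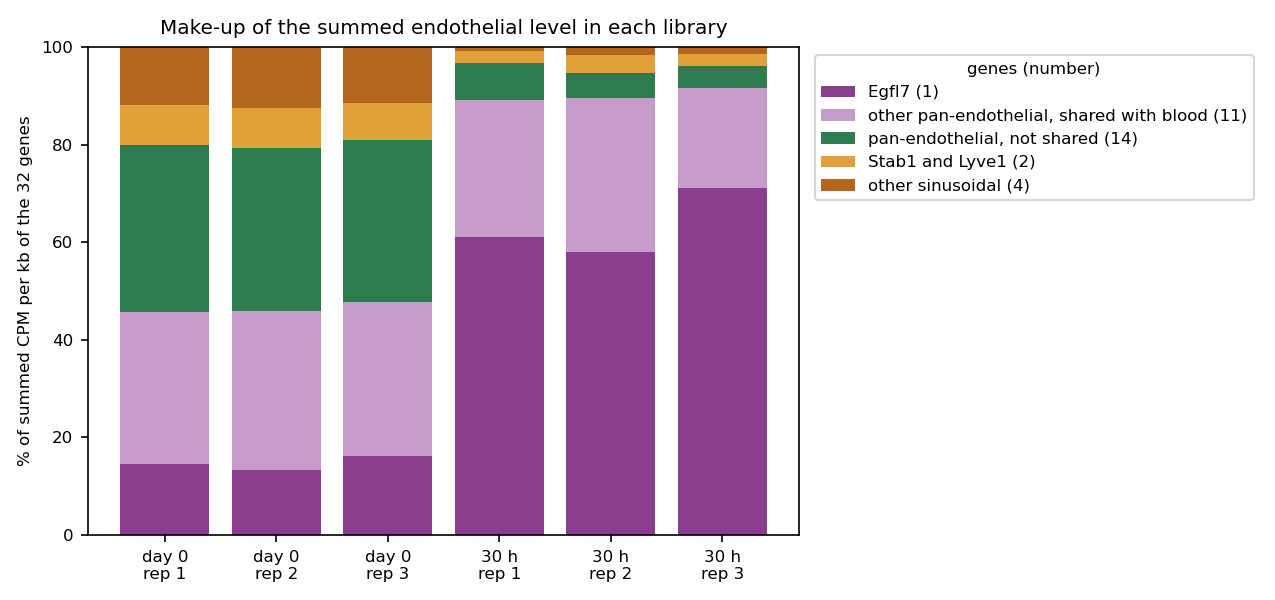
Make-up of the summed CPM per kb of the 32 genes in each library, as a percent. The parts are Egfl7, the 11 other pan-endothelial genes listed as shared with blood, the 14 pan-endothelial genes not so listed, Stab1 with Lyve1, and the 4 other sinusoidal genes. Egfl7 takes 13.4% to 16.2% of each bar at day 0 and 57.9% to 71.1% at 30 h, and the 4 other sinusoidal genes go from 11.4% or more to 1.64% or less.

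Promoter windows are shown for the pan-endothelial and sinusoidal gene with the largest fall among those with a window (Clec14a and Stab2) and for Egfl7. They were chosen by the size of the change, and a link between sequence and change was not tested. Other members fell without reaching trace levels, and their windows are not shown. The windows are from RefSeq (GRCm38.p6, the assembly of mm10), 250 bases before to 50 after the start, 5′ to 3′ on the gene's strand; capitals mark AGGAAG, a core bound by ETS factors, or its reverse complement CTTCCT.
Clec14a, chr12:58269209-58269508, minus strand: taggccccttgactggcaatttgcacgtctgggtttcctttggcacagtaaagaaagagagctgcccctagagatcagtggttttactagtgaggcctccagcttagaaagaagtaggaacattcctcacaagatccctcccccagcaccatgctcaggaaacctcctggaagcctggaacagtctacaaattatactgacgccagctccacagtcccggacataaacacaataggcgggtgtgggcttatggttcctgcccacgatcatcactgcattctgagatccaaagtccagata
Stab2, chr10:87007893-87008192, minus strand: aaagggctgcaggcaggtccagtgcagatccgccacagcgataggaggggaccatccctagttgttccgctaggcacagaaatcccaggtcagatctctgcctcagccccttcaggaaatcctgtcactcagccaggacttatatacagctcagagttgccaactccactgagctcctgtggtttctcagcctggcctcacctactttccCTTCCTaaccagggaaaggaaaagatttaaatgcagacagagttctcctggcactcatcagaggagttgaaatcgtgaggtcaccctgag
Egfl7 start 1, chr2:26580833-26581132, plus strand: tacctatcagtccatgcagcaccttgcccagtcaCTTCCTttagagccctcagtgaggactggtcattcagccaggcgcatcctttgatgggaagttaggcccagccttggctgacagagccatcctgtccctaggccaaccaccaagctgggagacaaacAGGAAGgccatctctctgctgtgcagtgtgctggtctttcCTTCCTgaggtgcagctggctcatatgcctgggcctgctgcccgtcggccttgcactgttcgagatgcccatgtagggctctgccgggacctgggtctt
Egfl7 start 2, chr2:26583615-26583914, plus strand: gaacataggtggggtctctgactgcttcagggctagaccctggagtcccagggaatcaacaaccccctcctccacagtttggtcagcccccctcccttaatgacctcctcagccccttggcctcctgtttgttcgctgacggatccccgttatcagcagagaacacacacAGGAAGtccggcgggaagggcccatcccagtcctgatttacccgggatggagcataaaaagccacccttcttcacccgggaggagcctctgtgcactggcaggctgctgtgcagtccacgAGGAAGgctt
Egfl7 start 3, chr2:26586386-26586685, plus strand: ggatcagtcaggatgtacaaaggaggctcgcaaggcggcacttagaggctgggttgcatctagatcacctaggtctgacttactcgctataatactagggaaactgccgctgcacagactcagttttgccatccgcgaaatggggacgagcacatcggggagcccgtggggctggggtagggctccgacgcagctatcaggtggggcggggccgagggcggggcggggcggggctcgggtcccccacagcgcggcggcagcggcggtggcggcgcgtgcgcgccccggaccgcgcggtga
The Clec14a window held no match, the Stab2 window 1, and the Egfl7 windows 3, 2 and 0. Gene counts do not tell which Egfl7 start was used.

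Windows were found for 15 of the 32 genes, and 9 of these 15 genes held AGGAAG on either strand in at least 1 window (Egfl7, Emcn, Eng, Erg, Flt1, Robo4, Stab1, Stab2 and Tie1). Counted by window it was 10 of 19, or 52.6%, beside 35.4% of all 32851 windows. A second ETS core, TTCCGG (or CCGGAA), was in 1 window (Kdr), 5.26% beside 14.9%. GATAAG, bound by GATA factors, was in 10.5% of member windows (Erg and Tek) beside 7.44%. The SOX cores ACAATG and ACAAAG were in 5.26% and 15.8%, beside 12.6% and 18.7%, and CACCC, bound by KLF factors, was in 78.9% beside 57.5%. All were searched on both strands, genes with several starts count more than once, and each match is a description of letters only.

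Other genes of the same pathways moved in both directions. Counts of genes called in these lists stand beside 40.1% lower and 34.4% higher of all genes tested. Of 21 ligands and co-receptors of vessel signalling, 16 were lower and 1 higher, with a median log2 change of -1.60. The gene that rose was Vegfa, the ligand of KDR and FLT1, from 25.2, 29.9 and 27.3 CPM to 145, 143 and 126 CPM, 5.04-fold (edgeR adjusted p = 1.75e-06). Its ligand relatives Vegfb and Vegfc were 3.52-fold and 3.94-fold lower, and the VEGF co-receptors Nrp1 and Nrp2 6.39-fold and 6.31-fold lower. Slit2, a guidance ligand, had the largest fall of the list, from 12, 12.4 and 12.4 to 0.839, 1.25 and 0.944 CPM. So in these libraries the ligand Vegfa rose while all 3 VEGF receptor genes and both co-receptor genes fell.

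Of 26 tested genes on a list of other endothelial markers, 20 were lower and 0 higher by edgeR (0 also by DESeq2; the median log2 change was -2.04). Adgrf5, an adhesion receptor of capillaries, had the largest fall, from 10.5, 10.3 and 9.01 to 0.0493, 0.0596 and 0.126 CPM. Cd34, a sialomucin of vessels and blood progenitors, was the most abundant and fell 2.25-fold. Bmx, a kinase gene, had the largest positive value, 0.22, and did not pass (edgeR adjusted p = 0.3166). Of 14 tested genes on a list of other sinusoidal genes, 9 were lower and 3 higher, beside 40.1% lower and 34.4% higher of all genes tested. Rspo3, a Wnt enhancer of liver endothelium, had 0, 1 and 1 counts at 30 h against 110, 120 and 96, and Ehd3, the most abundant, was 3.95-fold lower. The genes called higher were Cd36, a fatty acid receptor (9.84, 10.9 and 8.74 to 11.6, 27.4 and 30.6 CPM), Wnt2 (2.29-fold) and Fcgr2b, an Fc receptor (1.63-fold). With scaling by totals only, Cd36 and Fcgr2b had log2 changes of 0.74 and 0.21 and were no longer past the threshold (edgeR adjusted p = 0.068 and 0.1237). Each of these 3 is also known in blood or other non-endothelial cells. Cd209b had 0 counts in all 6 libraries.

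Of 16 tested genes on a list of transcription factors of endothelium, blood or both, 13 were lower and 2 higher, beside 40.1% and 34.4% of all genes tested. Tal1, needed for both lineages and active in red cell precursors, was the most abundant and rose 3.27-fold, from 268, 262 and 266 to 967, 848 and 784 CPM (edgeR adjusted p = 4.781e-06). Fli1, an ETS factor of megakaryocytes and endothelium, was called higher with TMM (1.37-fold), but stood at -0.04 (log2) with library totals alone (edgeR adjusted p = 0.7562). Lmo2, a TAL1 partner, did not pass (270, 264 and 274 CPM, then 264, 246 and 255). Foxc1, a mesodermal and vascular factor, had the largest fall, to 0.148, 0.0596 and 0 CPM from 1.61, 2.71 and 2.73, and Nr2f2, a factor of venous identity, was 17.5-fold lower. Lmo2 was named after its values were seen, as the partner of TAL1.

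Markers of other cells are given beside these changes. Their part in the result was not tested. Of all genes tested, 40.1% were lower and 34.4% higher at 30 h. The 18 endothelial genes not shared with blood summed to 259 to 303 CPM at day 0 and 12.2 to 13.2 CPM at 30 h, 4.60%, 4.26% and 4.29% of the day 0 mean in the 3 libraries. Mesenchyme and stellate cell markers went from 1740 to 2210 CPM to 43.6 to 102 CPM, with 11 of 12 tested lower and a median log2 change of -5.27. Lrat was at 0 in every library at 30 h, but it had only 16, 10 and 10 counts at day 0 and was not tested. Hepatoblast markers went from 14500 to 16500 CPM to 860 to 2470 CPM, with 12 of 14 lower and a median of -3.88. The first library at 30 h was the lowest for both of these sums and for the 4 sinusoidal genes not shared with blood, which held 1.42%, 3.11% and 3.89% of their day 0 mean. It was not the lowest for the 18 endothelial genes as a whole. Stem and progenitor markers summed to 618 to 640 CPM and then 226 to 238 CPM, with 9 of 12 lower and 1 higher, and 9 of 9 erythroid markers rose.

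Among markers of blood cells that share some of these genes, the macrophage and megakaryocyte sums overlapped between the groups, while the stem and progenitor sum (above) and the lymphoid sum were lower in every library at 30 h. Macrophage markers summed to 220 to 251 CPM at day 0 and 197 to 302 CPM at 30 h, with 4 of 12 higher, 4 lower and 4 not passing. Of all genes tested, 34.4% were higher and 40.1% lower, so these counts are near the background and are not read as a result. Among the macrophage markers, Adgre1 (1.94-fold), Cd68, Fcgr1 and C1qb rose. Those called lower were Timd4, Cd5l and Vcam1, at 3.49% or less of day 0, and Marco, at 53.9%. Cd163 was at 0.0577 CPM or less in every library. Megakaryocyte and platelet markers summed to 1080 to 1300 CPM and 1020 to 1390 CPM, with 5 of 12 lower and 1, Pf4, higher. That count of lower genes is also near the 40.1% of all genes tested. Single genes weighed heavily in these sums, so their overlap does not mean that the markers held their levels. Pf4 went from 178, 166 and 150 CPM to 301, 486 and 654 CPM. Vcam1, on the macrophage list, went from 79.3, 76.4 and 68.7 CPM to 1.63, 3.22 and 2.96 CPM. Granulocyte and mast cell markers summed to 3180 to 3290 CPM and 3670 to 5690 CPM, and lymphoid markers to 41.7 to 43.0 CPM and 19.2 to 23.8 CPM.

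**Figure D5:**
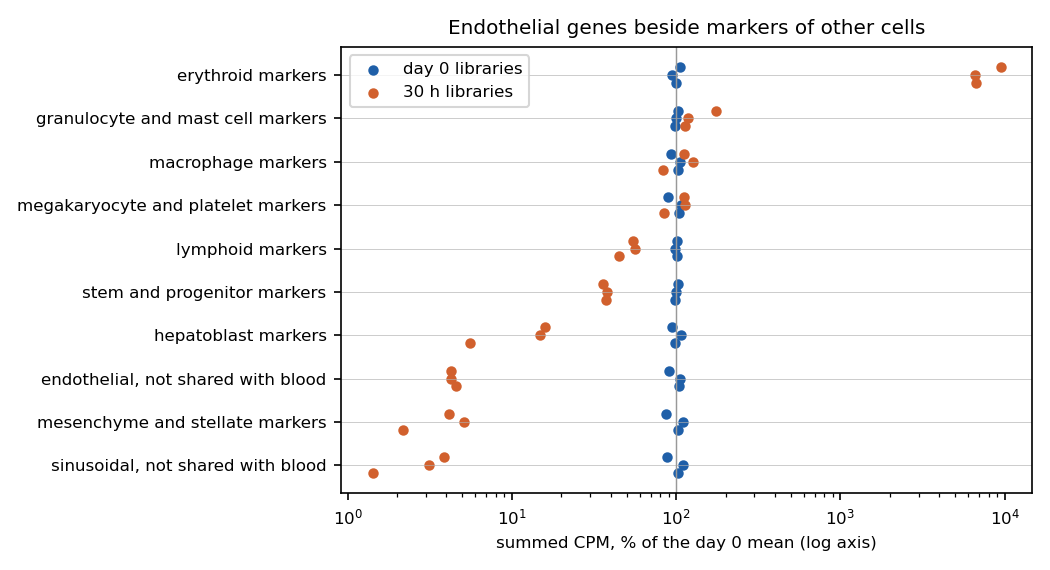
Summed CPM of each marker list in each library, as a percent of its day 0 mean (log axis); blue points are the 3 day 0 libraries and orange points the 3 at 30 h. The endothelial genes not listed as shared with blood (4.26% to 4.60%) lie next to the mesenchyme and hepatoblast markers. Macrophage and megakaryocyte markers lie on both sides of 100% and erythroid markers at 6610% to 9450%. The macrophage and megakaryocyte sums each hold genes that moved in both directions.

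Spread within the groups was uneven. At day 0 the coefficient of variation of the 32 genes ran from 3.8% (Dll4) to 20.7% (Ptprb), with a median of 8.66%, and the third library was the lowest of the 3 for 28 of the 32 genes. Hepatoblast, mesenchyme, macrophage and megakaryocyte sums were also lowest in that library (14500, 1740, 220 and 1080 CPM). The erythroid, stem and progenitor, granulocyte and lymphoid sums were not. At 30 h no library took that place: the first was the lowest for 15 genes, the second for 6 and the third for 11, ties at 0 going to the first named. Exons of Eng overlap those of Fpgs, those of Gpr182 Zbtb39, and those of Nos3 Atg9b, all on the other strand, and those of Ramp2 overlap Vps25 on the same strand, so the counts of these members are less certain.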

How the data were processed

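The authors deposited, for each of the 6 libraries, raw counts of reads by Ensembl gene ID. Tools listed in the submitters' processing notes are STAR, HTSeq 0.6.1p1, cutadapt 1.13 and DESeq2, with mm10 as the build and no settings. Symbols, positions and exon lengths come from GENCODE M21, which held 54165 of the 54232 IDs, all 32 members among them; Ahsp, an erythroid marker, was not matched. Genes kept by edgeR's filterByExpr (at least 10 counts at the median library total in 3 libraries) were scaled by TMM and tested with robust quasi-likelihood fits (edgeR 4.0.16, R 4.3.3), with factors near 1.18 at day 0 and between 0.82 and 0.87 at 30 h. Standard errors were derived from the F statistic. Intervals on the percent left are exact conditional binomial (scipy 1.17.1) and cover counting error only. The steps were tested on simulated data.

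Members, lists and motifs were chosen with earlier results of these data known. All members are named, and of each pathway list the largest rise, largest fall and most abundant gene; other pathway genes and single markers were named after their values were seen. Alternatives were other scalings, other filters, DESeq2 1.42.0, a replicate block, leaving out each library in turn, and other list borders. Within groups no 2 libraries agreed within sampling noise (chi-square per degree of freedom of 4.30 or more), so none was merged.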

Additional observations from a re-analysis of the deposited data

How the results depend on the processing

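All 31 members called lower stayed so under each of 13 alternatives, and the counts of lower genes were 6 of 6 sinusoidal, 25 pan-endothelial, 13 shared and 18 not shared in each; with Plvap and Emcn moved to the sinusoidal list they were 8 and 23. The count of members called higher, 1, was 0 with library totals only (where the log2 change of Egfl7 was -0.11), with upper-quartile scaling, with no filter, with a filter at a mean of 1 CPM and with the replicate block, and between 0 and 1 with 1 library left out. With library totals only, median log2 changes were -5.02 for all members, -3.82 pan-endothelial, -2.91 shared and -5.92 not shared, beside a median of all genes of -0.58, and 3601 genes were called higher. The median of all members was -4.68 with upper-quartile scaling. With 1 library left out it ran from -4.65 to -4.35, the pan-endothelial median from -3.64 (without 30 h replicate 1) to -3.20 (without 30 h replicate 3), the sinusoidal median from -5.77 (without 30 h replicate 3) to -4.74 (without 30 h replicate 1), and that of genes not shared from -5.95 to -5.06. The fall in the sinusoidal share, 15.8 percentage points, became -11.7 with Stab1 and Lyve1 left out and -11.8 with Egfl7 left out, the latter chosen after seeing the data.

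Fitted changes of genes with few counts at 30 h moved by over 1.5 times when 1 library was left out. Without 30 h replicate 3 the log2 changes were -9.10 for Sox17, -10.62 for Mmrn2, -11.65 for Clec14a, -8.64 for Stab2, -8.27 for Lyve1, -7.40 for Emcn, -6.09 for Ramp2 and -5.72 for Flt4. Without 30 h replicate 1 they were -10.95 for Sox18, -3.93 for Dll4, -5.16 for Sox17, -6.68 for Mmrn2, -7.16 for Clec14a and -7.15 for Stab2, and without 30 h replicate 2 -6.42 for Robo4. With DESeq2 Sox7 had -8.03. Same-numbered libraries of the 2 groups deviated from their group means with correlations of -0.224, 0.244 and -0.0114. Pairs with different numbers had correlations between -0.235 and 0.256. With 3 libraries per group these values cannot tell whether the numbers pair the libraries. With the replicate block Egfl7 had a log2 change of 0.36 (edgeR adjusted p = 0.05046), and 5254 genes were called higher and 6277 lower.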
